A study of Mus musculus with 41 samples.

Results

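The exon junction complex is represented here by 6 genes, chosen by symbol: Eif4a3, Magoh, Magohb, Rbm8a, Casc3 and Rnps1. They were followed at the level of ribosome footprints, RNA and single transcripts in mice and cells that lack a ribosome rescue factor, Hbs1l or Pelo, or carry a conditional allele of the nonsense-mediated decay factor Upf2. All 6 were among the 55385 genes with RNA values and the 22438 genes with footprint rows, and their 36 annotated transcripts were among 142552.

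Footprints (ribosome-protected mRNA fragments) were read from 30 libraries and polyadenylated RNA from 11. Whole embryos at E8.5 were C57BL/6NJ and either Hbs1l -/- or wild type, with 3 libraries a genotype and 5 embryos pooled in each. Cerebella at P14 were C57BL/6J, either Atoh-Cre;Hbs1l cKO or Atoh-Cre;Hbs1l +/+, with 3 libraries a genotype of 1 cerebellum each, and all of them carried the B6J form of the tRNA gene n-Tr20. This Cre is driven by Atoh1, a gene of granule cell precursors, so cells of other lineages in the conditional knockout (cKO) cerebellum are not its targets. By the study's methods the cKO genotype is Hbs1l fl/-, so those cells carry a single intact copy while the controls carry both. Primary mouse embryonic fibroblasts (MEFs, C57BL/6, 1 embryo a line) all carried CAG-Cre ER and the B6J form of n-Tr20 and all had received tamoxifen, controls included. They were Hbs1l cKO (Hbs1l fl/-), Pelo cKO (Pelo fl/fl), Upf2 cKO (Upf2 fl/fl) or control. Each MEF genotype had 3 footprint libraries with 3 control libraries of its own sequencing batch, and RNA came from 3 control, 3 Hbs1l cKO, 2 Pelo cKO and 3 Upf2 cKO libraries of 1 further batch.

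The complex is a mark that splicing leaves on mRNA upstream of exon-exon junctions. Eif4a3, a DEAD-box RNA helicase, grips the RNA and is locked in place by a heterodimer of Magoh, or its paralog Magohb, with Rbm8a (Y14), and Casc3 (MLN51, Barentsz) adds to its hold on the RNA. Rnps1 is a peripheral factor of the complex with roles in splicing and in decay. In the cytoplasm a translating ribosome strips the complex from the coding region, and a complex left downstream of a stop codon helps Upf proteins to trigger nonsense-mediated mRNA decay.

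Footprint totals lay between 2634480 and 7298812 counts a library in embryos, 10919139 and 22591768 in cerebella, and 5782990 and 25607974 in MEFs, and RNA totals between 22713643 and 86425762 estimated counts. The labelled tissues held their markers: 6 of 6 fibroblast markers were detected in every MEF library, 6 of 6 cerebellar ones in every cerebellum and 5 of 5 early embryo ones in every embryo pool. Hbs1l footprints were lower in the mutant libraries by a log2 fold change of -3.60 in embryos, -1.5 in cerebella and -4.15 in MEFs, and Pelo footprints by -3.78 in Pelo cKO MEFs. Upf2 went against its label: its RNA was 20.6, 14.4 and 8.61 TPM (transcript abundance scaled to a fixed total per library) in the Upf2 cKO libraries and 3.82, 5.63 and 4.51 in the controls (log2 fold change 1.33), and its footprints also rose (1.09). Counts over the whole gene do not single out the deleted exons, so these values do not check the deletion itself, and these are called the libraries labelled Upf2 cKO below. Control libraries of the same number in different footprint batches differed little more than counting noise (a chi-square per gene of 1.11 to 1.19, against 4.17 to 13 for different numbers), so the 3 MEF footprint comparisons share the same control material, as the RNA comparisons share their 3 controls.

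In the mouse genome (GRCm38) the core genes lie apart, Eif4a3 at chr11:119288363-119300089 on the minus strand, Magoh at chr4:107879755-107887424 on the plus strand, Magohb at chr6:131284388-131293244 on the minus strand, Rbm8a at chr3:96629933-96633791 on the plus strand and Casc3 at chr11:98804905-98833814 on the plus strand. Rnps1 lies at chr17:24414565-24425901 on the plus strand. How far reads can tell the members apart differs between them. Magoh and Magohb share 81.0% of their aligned coding bases, and no 28-base window of either occurs exactly in another gene. The first 30 coding bases of each are shown because they carry the difference that separates the pair, with capitals at the bases that differ (GRCm38, Magoh chr4:107879858-107879887 on the plus strand, Magohb chr6:131293130-131293159 on the minus strand).
Magoh-201: atggAGagtgaCttTtacctGcgTtactac
Magohb-201: atggGTagtgaTttCtacctTcgCtactac
Rbm8a shares 97.7% of its coding bases with Rbm8a2, a gene of 1 exon, and 54.6% of its 28-base coding windows occur exactly in another gene. The same stretch of this pair (chr3:96629962-96629991, plus strand, and chr1:175978880-175978909, minus strand) differs at 1 base.
Rbm8a-202: atggcggacgtgctggatcttcaCgaggcg
Rbm8a2-201: atggcggacgtgctggatcttcaTgaggcg
For Eif4a3, 54.3% of the windows are shared, mostly with Eif4a3l1, Eif4a3l2 and Gm5576, and for Rnps1 76.7% are shared with Gm9825. Footprints of Eif4a3, Rbm8a and Rnps1 could therefore be split with these copies, while Magoh, Magohb and Casc3 have no such windows. How reads that match several places were counted is not given in the sources used here.

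Per kilobase of coding sequence, Magoh had the highest and Casc3 the lowest mean footprint level in all 10 groups of footprint libraries. With 1 library left out, this held in 9 to 10 groups. In CPM (counts scaled to a fixed library total) per kilobase, Magoh stood at 612 ± 48.9 (SD, n = 3) in control embryos, 253 ± 25.9 in control MEFs of the Hbs1l batch and 136 ± 10.99 in control cerebella. Casc3 stood at 39.2 ± 3.41, 24.9 ± 1.62 and 25.1 ± 3.68 in the same groups. The genes in between changed places. In control embryos Rbm8a (172 ± 20.5) and Eif4a3 (157 ± 8.52) overlapped, as did Magohb (71.9 ± 5.26) and Rnps1 (66.0 ± 7.40). In control MEFs of the Hbs1l batch Magohb (106.5 ± 9.0) and Eif4a3 (94.0 ± 2.67) came next to Magoh and overlapped each other, above Rbm8a (52.0 ± 4.73). Rnps1 (26.7 ± 0.758) overlapped with Casc3 there. This pair also overlapped in controls of the Upf2 batch, in Hbs1l cKO MEFs and in the libraries labelled Upf2 cKO. In controls of the Upf2 batch Magohb (106.1) and Eif4a3 (98.8) did not overlap, nor did Rnps1 (27.4) and Casc3 (24.1) in those of the Pelo batch. In control cerebella Rbm8a (59.97 ± 9.19) and Eif4a3 (52.2 ± 4.26) again overlapped, and Magohb, at 27.3 ± 2.96, overlapped with Casc3. Tissue and sequencing batch cannot be told apart in these levels. The order also sets genes with windows shared with copies (Eif4a3, Rbm8a, Rnps1) beside genes without them, and the part of this was not tested.

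**Figure D1:**
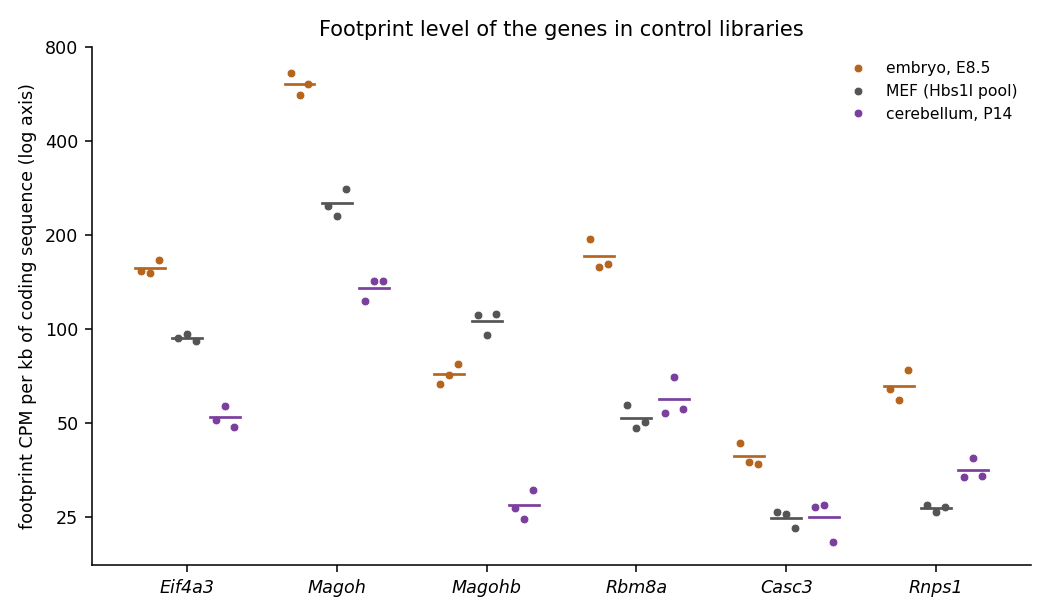
Footprint level of the 6 genes in control embryos, cerebella and MEFs (CPM per kilobase of coding sequence, log axis), with 1 point a library and the group means marked. Magoh is highest in each of the 3 groups, with means of 612, 136 and 253, and Casc3 lowest.

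RNA levels, in TPM and thus also per length, followed another order. In control MEFs Eif4a3 led at 124 ± 12.8 TPM (SD, n = 3), overlapping with Magoh at 102 ± 24.4, which in turn overlapped with Rnps1 at 89.5 ± 10.9. Rbm8a (56.2 ± 9.83), Magohb (37.7 ± 7.31) and Casc3 (11.8 ± 1.86) followed. Of the Rbm8a TPM 54.1% belonged to transcripts not annotated as protein coding, mostly the retained intron transcript Rbm8a-204, against 2.02% for Magohb. The place of Rbm8a above Magohb thus includes RNA without an annotated coding region. Eif4a3 had the highest and Casc3 the lowest mean in all 4 RNA groups, so Casc3 closed the order at both levels while Magoh headed it in footprints only. The part of shared windows in this contrast was not tested.

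The comparison of Hbs1l -/- with wild-type embryos asks which genes differ in ribosome occupancy when the rescue factor is lost from the whole animal. None of the 6 genes passed the test there (the quasi-likelihood test of edgeR, with a Benjamini-Hochberg adjusted p of at most 0.05), where 1.87% of 11416 genes did. By unadjusted p under 0.05, 2 of the 6 members and 2121 of all genes passed. Rbm8a footprints were 102, 59.9 and 72.2 CPM in Hbs1l -/- embryos and 145.0, 117 and 119.7 CPM in wild-type embryos. All mutant libraries lay below all wild-type libraries, with a log2 fold change of -0.70 ± 0.20 (SE) and an adjusted p of 0.0836. Without mutant replicate 1 the value was -0.95 and passed (adjusted p = 0.00127), without any other single library it was -0.76 to -0.54 and did not (0.195 to 0.324), and the full set was called by DESeq2 (adjusted p = 0.0370), with no filter on low counts (0.0160) and with a replicate block (0.0154). Rbm8a2 gave 41.7, 25.9 and 26.9 CPM against 53.7, 53.5 and 44.6, and summing the copies left Rbm8a at -0.69 with an adjusted p of 0.0758.

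Magohb footprints leaned the other way in embryos. They were 63.5, 63.9 and 76.9 CPM in the mutants and 43.9, 46.6 and 50.7 in wild type, without overlap (0.53 ± 0.17, adjusted p = 0.121). Without mutant replicate 1 Magohb passed with an adjusted p of 0.02, and without any other single library it did not (0.223 to 0.363). These were the only members whose groups did not overlap, 1 higher and 1 lower, against 11.4% and 12.3% of all genes. Its paralog Magoh stood at 339, 383 and 415 CPM in the mutants and 385, 326 and 354 in wild type, and Eif4a3 at 255, 224 and 284 against 252, 246 and 273. Both overlapped, with log2 fold changes of 0.09 and -0.01, and Casc3 (-0.12) and Rnps1 (-0.14) likewise did not pass. Markers of other cells moved with genotype in these pools: the summed level of 5 trophoblast markers was 76.0 to 798 CPM in the mutants, with 5 of 5 markers detected, and 3.80 to 6.39 in wild type, with 3 of 5 detected. The summed early embryo markers were 2012 to 4128 against 7812 to 10360 CPM, a sum made up mostly of the embryonic globins Hba-x and Hbb-y. Myl7 and Tnnt2 were also lower without overlap, and Lin28a overlapped (302 to 497.5 against 423 to 449). The sum of 4 endothelial markers was 418 to 618 against 350.4 to 366 CPM, with Pecam1 higher and Emcn lower without overlap (64.1 to 88.4 against 27.04 to 34.2, and 5.48 to 10.3 against 10.8 to 13.7) and Kdr overlapping. Of the fibroblast markers, Col1a1 (109.6 to 191 against 237 to 290 CPM) and Col3a1 (29.9 to 63.2 against 109.7 to 120.3) were lower without overlap. Thy1 was higher without overlap (6.01 to 10.3 against 4.77 to 4.94 CPM), and the others overlapped. The part of these markers in the Rbm8a and Magohb values was not tested, and in whole embryos fewer cells of a type and less RNA per cell cannot be told apart.

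In the cerebellum, where Hbs1l was deleted in the granule cell lineage, none of the 6 genes passed either (edgeR's quasi-likelihood test, 0.0624% of 14430 genes called, 1936 genes and 0 members at an unadjusted p under 0.05, 0 members called by DESeq2). Magohb gave 19.4, 19.4 and 19.2 CPM in Hbs1l cKO and 16.5, 14.8 and 18.6 CPM in control cerebella. It was the only member without overlap, against 9.38% of all genes that were higher in every mutant library, and its fold change was 0.21 ± 0.13 (adjusted p = 0.540). Rbm8a, the gene with the lowest fold change in embryos, stood at 37.1, 47.0 and 41.8 CPM against 37.7, 48.0 and 38.4, with overlap and a fold change of 0.02 ± 0.14. The summed cerebellar markers were 5225 to 5835 CPM in the mutants against 6756 to 7139, with Gabra6 and Pcp2 lower without overlap and the other 4 markers overlapping, and the summed macrophage markers 132 to 144 against 102 to 119.8, where only Csf1r did not overlap (91.5 to 96.4 against 64.9 to 74.0). Their part in these values was not tested. The other genes gave 0.16 (Magoh), 0.10 (Eif4a3), 0.05 (Rnps1) and -0.07 (Casc3). The test of the difference between embryos and cerebella called none of the 6 (0.732% of all genes; 2298 genes and 1 member, Rbm8a, at an unadjusted p under 0.05, and 0 members by DESeq2), and gave Rbm8a -0.71 ± 0.26 with an adjusted p of 0.204, or 0.0260 without embryo mutant replicate 1 and up to 0.389 without another library.

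**Figure D2:**
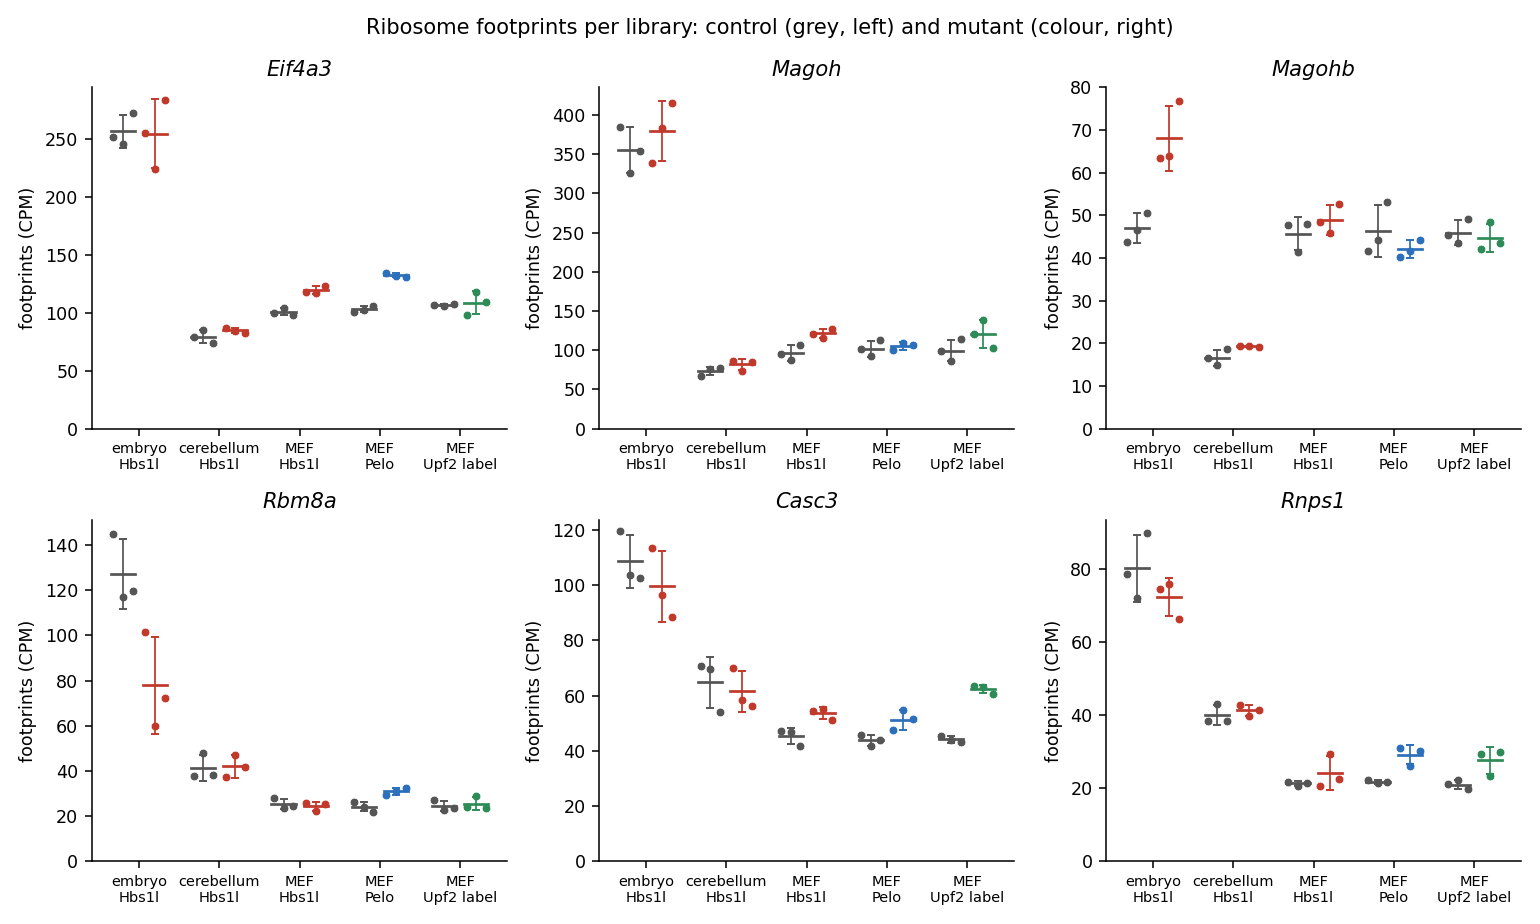
Footprints of each gene in every library (CPM on the vertical axis), mutants beside the controls of the same batch in embryos, cerebella and the 3 MEF comparisons, with 1 point a library and a line with SD bars at each group mean. The embryo Rbm8a libraries of the mutants, 59.9 to 102 CPM, sit below the wild-type ones, while the cerebellum groups overlap for every gene but Magohb.

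In MEFs every member that passed the footprint test was higher in the mutant, and the members that passed differed by genotype. Of the 6 genes, 3 were called in Hbs1l cKO (Magoh, Eif4a3, Casc3), where 17.4% of all genes were called higher, 16.7% lower and 34.1% in either direction. In Pelo cKO 4 were called (Eif4a3, Rnps1, Rbm8a, Casc3), against 22.9% of all genes higher, 21.2% lower and 44.1% in all. In the libraries labelled Upf2 cKO 2 were called (Casc3, Rnps1), against 22.3% higher, 21.1% lower and 43.4% in all. The called genes were also those whose mutant libraries all lay above the controls, 3, 4 and 2 of 6, beside 23.4%, 28.5% and 27.5% of all genes. The median fold change of the 6 genes was 0.20, 0.29 and 0.17 on the log2 scale in these comparisons, with medians over all genes of -0.01, 0.00 and 0.00. Every fold below is a log2 fold change with its standard error, from the same test. Macrophage markers also moved with genotype: the summed level of 5 was 162 to 219 CPM in Hbs1l cKO against 91.5 to 123 in its controls, 345 to 501 in Pelo cKO against 91.3 to 127, and 123 to 158 in the libraries labelled Upf2 cKO against 90.6 to 122. The sum of 4 endothelial markers was lower without overlap in all 3, at 37.1 to 41.9 CPM against 67.4 to 81.2, 23.0 to 30.6 against 71.3 to 80.2 and 50.5 to 58.4 against 67.3 to 81.7. Of its genes Emcn was lower without overlap in all 3 and Kdr in Hbs1l cKO and Pelo cKO, while Cdh5 was higher without overlap in Pelo cKO (2.55 to 4.43 against 0.236 to 0.786 CPM) and in the libraries labelled Upf2 cKO (0.519 to 0.904 against 0.256 to 0.490), as was Pecam1 in Pelo cKO. The sum of the 6 fibroblast markers was higher without overlap in all 3, at 32530 to 36440 CPM against 27780 to 28380, 33550 to 38480 against 27940 to 28340 and 33770 to 36360 against 27970 to 28470. Col1a1, Col1a2 and Col3a1 were higher without overlap in each, whereas in the libraries labelled Upf2 cKO Vim was at 9154 to 9988 against 9940 to 10480 and Thy1 at 312 to 335.5 against 317 to 541. Their part in the footprint values was not tested.

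The members called in RNA were in part the same. In Hbs1l cKO 2 of the 6 genes were called, both higher (Eif4a3, Rnps1), beside 12.7% of all genes higher, 10.4% lower and 23.1% in all. In Pelo cKO 1 rose (Casc3) and 3 fell (Magohb, Magoh, Rbm8a), beside 15.5% of all genes higher, 16.6% lower and 32.1% in all. None was called in the libraries labelled Upf2 cKO, beside 20.0% of all genes, 13.2% higher and 6.76% lower (5560 genes and 2 members, Magoh and Casc3, at an unadjusted p under 0.05, and 1 member, Magoh, by DESeq2). Libraries did not overlap in TPM for 2 members, both higher, in Hbs1l cKO (21.1% of all genes), and for 2 higher and 3 lower in Pelo cKO (34.5% and 19.2%), where 2 libraries against 3 make this easier to reach. Summed macrophage marker RNA was 102.5 to 136 TPM in Hbs1l cKO, 87.6 to 134 in Pelo cKO and 48.1 to 109 in the libraries labelled Upf2 cKO, against 53.1 to 84.6 in the controls. Summed endothelial marker RNA was 6.45 to 7.47, 15.3 to 17.8 and 9.66 to 15.7 TPM, against 15.1 to 20.5. In Pelo cKO Kdr was higher (4.58 to 4.78 against 2.15 to 3.40 TPM) and Emcn lower (7.44 to 7.95 against 8.38 to 12.9), both without overlap. Summed fibroblast marker RNA was 5618 to 6789 and 5846 to 6464 TPM in Hbs1l cKO and Pelo cKO, above the controls at 4429 to 5556, and 3699 to 4460 in the libraries labelled Upf2 cKO, overlapping them at the low end. Their part in the RNA values was not tested. Translational efficiency, the footprint change over the RNA change in 1 model of both kinds of library, was called for 0 members in Hbs1l cKO (0.0336% of all genes, 2064 genes and 1 member, Magoh, at an unadjusted p under 0.05, 0 members by DESeq2), 4 in Pelo cKO (24.3% higher, 44.6% in all) and 1 in the libraries labelled Upf2 cKO (8.47% higher, 20.3% in all).

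**Figure D3:**
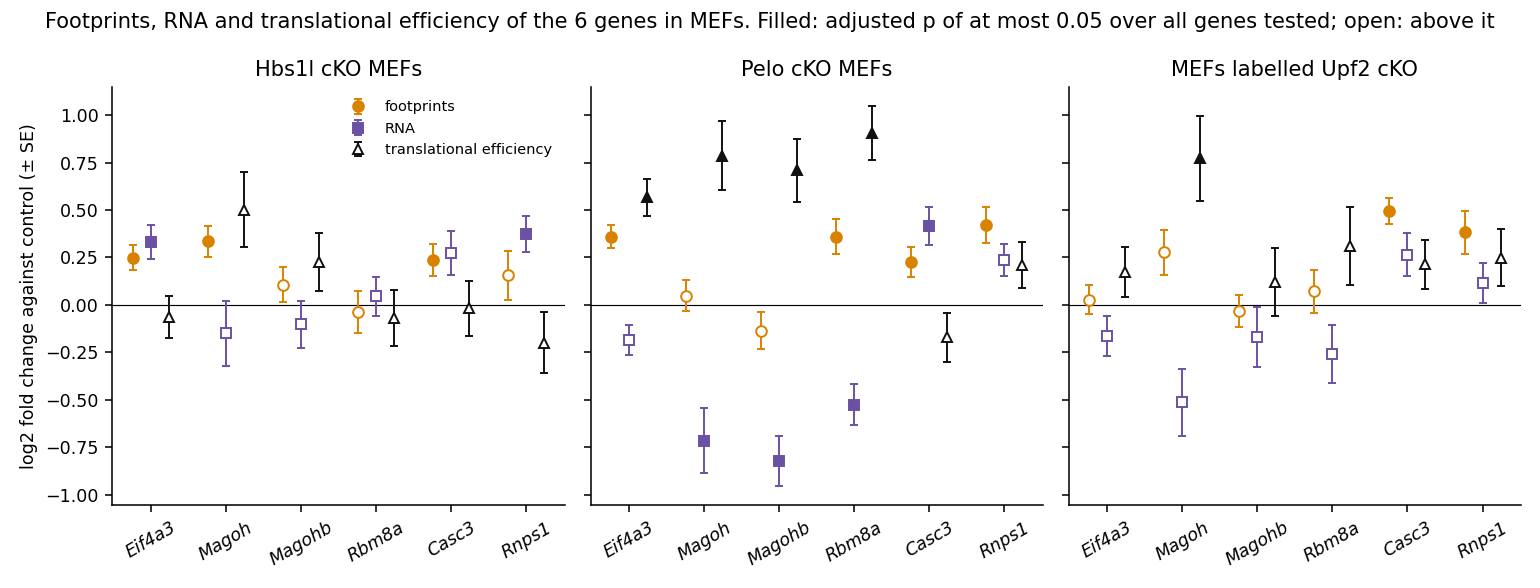
Log2 fold changes (mutant over control, vertical axis, bars ± SE) of footprints, RNA and translational efficiency for the 6 genes in the 3 MEF comparisons, filled where the adjusted p is at most 0.05. In Pelo cKO the RNA of Magoh, Magohb and Rbm8a lies at -0.72, -0.82 and -0.53 and their efficiency at 0.79, 0.71 and 0.91.

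Eif4a3, the helicase that anchors the complex, had more footprints without either rescue factor. Its footprints were 118, 117 and 124 CPM in Hbs1l cKO MEFs and 100.1, 104 and 98.1 in their controls. All mutant libraries were higher (0.25 ± 0.07, adjusted p = 0.0109), although without control replicate 1 the adjusted p was 0.0584. In Pelo cKO they were 134, 131.5 and 131 CPM against 100.6, 102.5 and 106. Again the groups did not overlap (0.36 ± 0.06, adjusted p = 0.000894). In the libraries labelled Upf2 cKO, 98.2, 118 and 109 CPM spanned the control values of 107, 106 and 108 (0.03 ± 0.08).

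At the RNA level Eif4a3 rose in Hbs1l cKO, with 167.5, 155 and 158 TPM against 112, 123 and 137 in the controls. The groups did not overlap (0.33 ± 0.09, adjusted p = 0.0282), but the call was lost without any 1 of the 3 Hbs1l libraries or of control replicates 1 and 2 (adjusted p of 0.0502 to 0.0982). Pelo cKO libraries held 125 and 114.0 TPM, within the control range (-0.19 ± 0.08, adjusted p = 0.113), and those labelled Upf2 cKO 108, 126 and 101 (-0.16 ± 0.10). The effect in Hbs1l cKO exceeded both by the test of the difference, by -0.48 ± 0.08 for Pelo cKO minus Hbs1l cKO (adjusted p = 0.00224, 35.2% of all genes called) and -0.49 ± 0.09 for Upf2 minus Hbs1l (adjusted p = 0.00243, 29.6% called). The translational efficiency of Eif4a3 rose in Pelo cKO by 0.57 ± 0.10 (adjusted p = 0.000483). It did not pass in Hbs1l cKO (-0.06) or in the libraries labelled Upf2 cKO (0.17).

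Magoh, the more abundant partner of Rbm8a, rose in footprints in Hbs1l cKO MEFs, with 121, 116 and 128 CPM against 94.7, 87.7 and 107. Every mutant library was above every control (0.34 ± 0.08, adjusted p = 0.00599). In Pelo cKO the values of 99.9, 109 and 107 CPM overlapped with 101, 92.2 and 112 (0.05 ± 0.08). In the libraries labelled Upf2 cKO, 120.2, 138 and 103 CPM overlapped with 98.4, 86.3 and 114 (0.28 ± 0.12, adjusted p = 0.0762), and passed without Upf2 replicate 3 (adjusted p = 0.0235) or control replicate 3 (0.0166). Without Upf2 replicate 2 or control replicate 2 the value was 0.16 (adjusted p = 0.337) or 0.18 (0.230). The test of the difference in footprint effect between Pelo cKO and Hbs1l cKO did not call Magoh (-0.28 ± 0.12, adjusted p = 0.209).

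Magoh RNA fell in Pelo cKO, where both libraries, at 65.5 and 73.7 TPM, lay below the controls at 76.2, 105.5 and 125. The change was -0.72 ± 0.17 (adjusted p = 0.0190), and without Pelo replicate 1 or 2 the adjusted p was 0.147 or 0.0507. In the libraries labelled Upf2 cKO 86.5, 77.5 and 49.2 TPM overlapped with the controls (-0.51 ± 0.18, adjusted p = 0.0649), and in Hbs1l cKO 73.2, 104 and 100.4 TPM did too (-0.15 ± 0.17). DESeq2 called the Upf2 value (adjusted p = 0.0196), as did edgeR with no filter on low counts (0.0123) and without Upf2 replicate 1 (0.0425) or control replicate 1 (0.0464), while the other libraries left out gave up to 0.231. Its translational efficiency rose by 0.79 ± 0.18 in Pelo cKO (adjusted p = 0.00359) and by 0.77 ± 0.22 in the libraries labelled Upf2 cKO (adjusted p = 0.0235). The latter was lost without Upf2 footprint replicate 2 (adjusted p = 0.0738), control footprint replicate 1 (0.0516) or 2 (0.0669), or RNA control replicate 3 (0.0755), with the replicate block (0.0588) and with the counts of Magohb added (0.56, adjusted p = 0.0578). In Hbs1l cKO the efficiency was 0.50 ± 0.20 (adjusted p = 0.218).

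Magohb, whose protein can take the place of Magoh, did not pass in footprints in any MEF genotype. In Hbs1l cKO it gave 48.5, 45.8 and 52.7 CPM against 47.8, 41.3 and 48.1 (0.11 ± 0.09), and in Pelo cKO 40.3, 41.6 and 44.3 CPM against 41.7, 44.2 and 53.1 (-0.14 ± 0.10). Both overlapped, and the value in the libraries labelled Upf2 cKO was -0.03. Its RNA fell in Pelo cKO, to 23.7 and 25.3 TPM against 30.9, 36.8 and 45.4. The groups did not overlap (-0.82 ± 0.13, adjusted p = 0.00499), and without Pelo replicate 1 the adjusted p was 0.0505. RNA values in Hbs1l cKO (32.8, 37.2 and 37.4 TPM, -0.10) and in the libraries labelled Upf2 cKO (42.0, 37.4 and 25.2 TPM, -0.17) overlapped with the controls. The Pelo effect on RNA was lower than that of Hbs1l by -0.68 ± 0.13 (adjusted p = 0.00428), and the Upf2 effect was higher than that of Pelo by 0.68 ± 0.17 (adjusted p = 0.0130, 32.0% of all genes called), the latter with adjusted p of 0.161 and 0.0852 without Pelo replicate 1 and 2. Translational efficiency rose in Pelo cKO by 0.71 ± 0.17 (adjusted p = 0.00387).

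Rbm8a, the RNA-recognition partner in the heterodimer, rose in footprints in Pelo cKO alone among the 3 tests. Its footprints were 29.3, 31.3 and 32.3 CPM there and 26.2, 24.2 and 22.0 in the controls. The groups did not overlap (0.36 ± 0.09, adjusted p = 0.0109). Values in Hbs1l cKO, of 25.7, 22.1 and 25.4 CPM against 27.9, 23.5 and 24.6, overlapped (-0.04 ± 0.11), as did 24.04, 29.0 and 23.6 CPM against 27.2, 22.7 and 23.7 in the libraries labelled Upf2 cKO (0.07 ± 0.11). The difference between the Pelo and Hbs1l effects was 0.40 ± 0.14 and did not pass (adjusted p = 0.117). Rbm8a2, at a lower level, rose in both Pelo cKO (0.50 ± 0.13, adjusted p = 0.00902) and the libraries labelled Upf2 cKO (0.74 ± 0.16, adjusted p = 0.00374), with 12.4, 9.40 and 13.2 CPM against 6.73, 6.64 and 7.35 in the latter. With the copies summed, the Upf2 value of Rbm8a became 0.25 and passed (adjusted p = 0.0356). Rbm8a2 RNA was 0 to 0.283 TPM in all RNA libraries.

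Rbm8a RNA fell in Pelo cKO to 43.9 and 39.1 TPM, against 45.6, 58.0 and 65.1 in the controls. No library overlapped (-0.53 ± 0.11, adjusted p = 0.0108), and without Pelo replicate 1 or 2 the adjusted p was 0.0839 or 0.0806. Hbs1l cKO libraries held 56.9, 58.5 and 60.8 TPM (0.05 ± 0.10) and those labelled Upf2 cKO 54.1, 52.6 and 33.9 (-0.26 ± 0.15), both within or overlapping the controls. The Pelo effect on RNA was lower than that of Hbs1l by -0.53 ± 0.10 (adjusted p = 0.00416). Rbm8a had the highest rise in translational efficiency of the 6 genes in Pelo cKO, by 0.91 ± 0.14 (adjusted p = 0.00022). Magoh (0.79 ± 0.18) and Magohb (0.71 ± 0.17) lay near it, and no test compared the genes. The efficiency calls of Eif4a3, Magoh, Magohb and Rbm8a in Pelo cKO held in every alternative that kept all libraries. They also held without any 1 library other than those of Pelo cKO RNA. With a single Pelo cKO RNA library left, the spread comes from the other libraries, footprints included, so such fits cannot check that group.

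**Figure D4:**
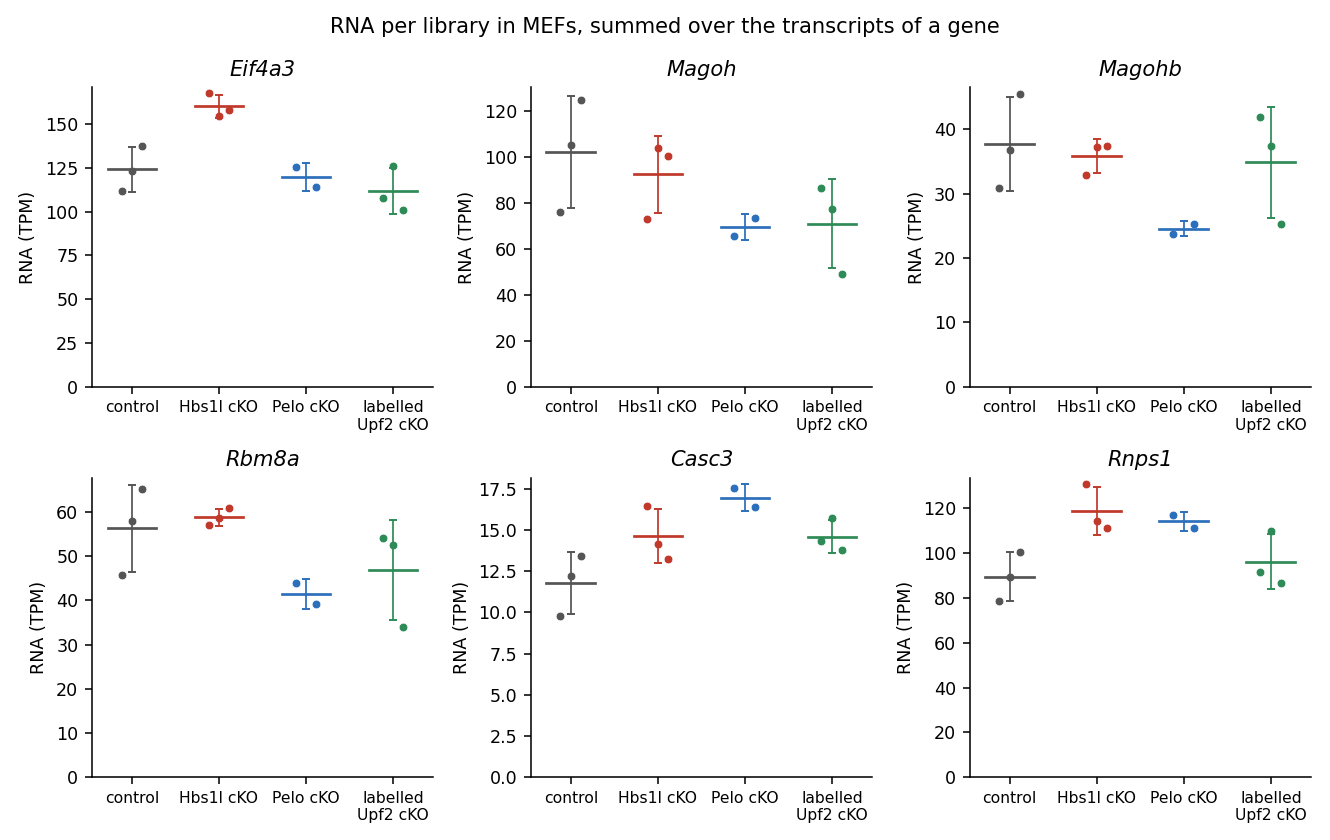
RNA level of each gene in the 11 MEF RNA libraries (TPM on the vertical axis), with 1 point a library and a line with SD bars at each group mean, control, Hbs1l cKO, Pelo cKO and labelled Upf2 cKO. Both Pelo cKO libraries lie below the 3 controls for Magoh, Magohb and Rbm8a, and above them for Casc3 and Rnps1.

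Casc3, the selective core subunit linked to decay, was the only member called in footprints in all 3 MEF comparisons. In the libraries labelled Upf2 cKO it gave 63.3, 63.2 and 60.5 CPM against 45.5, 43.9 and 43.1. The groups were far apart (0.50 ± 0.07, adjusted p = 0.000182), and this call held in every alternative. In Hbs1l cKO it gave 54.5, 55.0 and 51.02 CPM against 47.3, 46.7 and 41.9 (0.24 ± 0.08, adjusted p = 0.0417), and in Pelo cKO 47.4, 54.7 and 51.5 CPM against 45.8, 41.8 and 43.9 (0.22 ± 0.08, adjusted p = 0.0433). Both were without overlap but near the threshold. They were lost with DESeq2 (adjusted p of 0.0833 and 0.101), with no filter on low counts (0.0512 and 0.0507), in Pelo cKO with the replicate block (0.0571), and without any single library except mutant replicate 3 in the first (0.0502 to 0.130) and Pelo replicate 1 in the second (0.0774 to 0.140). The Upf2 effect was not called as different from that of Hbs1l (0.26 ± 0.10, adjusted p = 0.156) or Pelo (0.27 ± 0.10, adjusted p = 0.0825).

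Casc3 RNA rose in Pelo cKO, with 17.5 and 16.4 TPM against 9.76, 12.2 and 13.4 in the controls. Both libraries were above the controls (0.42 ± 0.10, adjusted p = 0.0202), with an adjusted p of 0.132 or 0.114 without Pelo replicate 1 or 2. RNA in the libraries labelled Upf2 cKO, at 14.3, 15.7 and 13.8 TPM, was also above every control, the only member without overlap there beside 18.7% of all genes, and did not pass (0.26 ± 0.11, adjusted p = 0.124). In Hbs1l cKO 16.4, 14.2 and 13.3 TPM overlapped (0.28 ± 0.12, adjusted p = 0.116). Its translational efficiency did not pass in any genotype (-0.02, -0.17 and 0.21).

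Rnps1, the peripheral splicing factor, rose in footprints in Pelo cKO, with 31.0, 26.2 and 30.3 CPM against 22.4, 21.4 and 21.6. No library overlapped (0.42 ± 0.09, adjusted p = 0.00494). It also rose in the libraries labelled Upf2 cKO, with 29.3, 23.5 and 30.1 CPM against 21.0, 22.1 and 19.8 (0.38 ± 0.11, adjusted p = 0.0184), a call lost without Upf2 replicate 1 (0.0623) or 3 (0.0728) or control replicate 1 (0.0569). In Hbs1l cKO 20.6, 29.5 and 22.6 CPM overlapped with 21.8, 20.7 and 21.4 (0.16 ± 0.13). Its RNA rose in Hbs1l cKO, at 131, 114 and 111 TPM against 78.6, 89.3 and 100.5 without overlap (0.38 ± 0.10, adjusted p = 0.0223), and was lost without Hbs1l replicate 1 (0.0534) or control replicate 1 (0.0603) or 2 (0.0802). Pelo cKO libraries were also above the controls, at 117 and 111 TPM, and did not pass (0.24 ± 0.08, adjusted p = 0.0718). The libraries labelled Upf2 cKO overlapped, at 91.8, 110.0 and 86.8 TPM (0.12 ± 0.11). The efficiency of Rnps1 did not pass in any genotype (-0.20, 0.21 and 0.25).

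The differences between genotypes that passed were in Eif4a3, Magohb and Rbm8a. In footprints the only one was Eif4a3, lower in the Upf2 than in the Pelo comparison by -0.34 ± 0.09 (adjusted p = 0.0267, 13.0% of all genes called). It was lost without any 1 of 7 of the 12 libraries (adjusted p of 0.0501 to 0.0733), and with the replicate block (0.0516). No member was called between Pelo and Hbs1l footprint effects (5.55% of all genes, 2415 genes and 2 members, Magoh and Rbm8a, at an unadjusted p under 0.05) or between Upf2 and Hbs1l effects (4.93%, 2445 genes and 2 members, Eif4a3 and Casc3), by edgeR or by DESeq2. These footprint tests treat the control libraries of the batches as independent, though they hold the same material.

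The RNA values can be followed to single transcripts, since the transcripts annotated for a gene differ in whether they can be translated. Of 36 member transcripts 35 had some estimated counts, and 16 to 18 passed the filter on low counts in each comparison. In the libraries labelled Upf2 cKO 1 of 18 was called, higher, beside 4.37% of all transcripts higher and 5.35% in either direction. None of 16 was called in Hbs1l cKO (1.31% of all transcripts, 6487 of all at an unadjusted p under 0.05) or in Pelo cKO (2.37%, 7011 of all). The members under that unadjusted p were Eif4a3-201, Rnps1-201, Rnps1-202, Rnps1-203, Rnps1-207 and Rnps1-211 in Hbs1l cKO. In Pelo cKO they were Rbm8a-201, Rbm8a-202, Rbm8a-204, Magoh-201, Magohb-201, Casc3-204, Eif4a3-201 and Rnps1-203. DESeq2 called 3 member transcripts in Hbs1l cKO, Eif4a3-201, Rnps1-202 and Rnps1-211. It called 5 in Pelo cKO, Rbm8a-201, Rbm8a-204, Magoh-201, Magohb-201 and Rnps1-203. The shares above are edgeR's and give no background for the DESeq2 counts.

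The called transcript was Rnps1-211, annotated as a processed transcript with no coding region. It has an extra exon of 122 bases (chr17:24415041-24415162 on the plus strand, GRCm38). The first 30 bases from the start position of Rnps1-202 are shown for it and for Rnps1-202, the coding transcript, since the exon junction falls 2 bases into the ATG and its G comes from a different exon in each. Capitals mark the ATG and, in Rnps1-211, the in-frame stop (spliced sequences, spanning chr17:24414733-24418484 and chr17:24414733-24415068).
Rnps1-202: ATGgctccttctcctaccaaacgcaaggac
Rnps1-211: ATGctggagaccTAGgctcgccacaccggg
From that ATG the frame of Rnps1-211 closes after 5 codons, stop included, with 6 exon junctions downstream of it. Rnps1-211 was at 11.5, 10.2 and 9.52 TPM in the libraries labelled Upf2 cKO and at 2.35, 2.80 and 3.30 in the controls. The groups were far apart (1.84 ± 0.16, adjusted p = 0.00364), and with the replicate block the adjusted p was 0.0592. Hbs1l cKO libraries held 5.57, 5.37 and 3.57 TPM and Pelo cKO libraries 3.89 and 4.83, above the controls and below the libraries labelled Upf2 cKO. The coding Rnps1-202 was at 46.6, 58.4 and 43.2 TPM against 44.7, 47.4 and 54.7, with overlap (-0.04).

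A transcript of Magohb behaved likewise but missed the threshold. Magohb-203 is annotated as a nonsense-mediated decay target and carries an extra exon of 200 bases (chr6:131291741-131291940, minus strand). The junctions of exon 1 are shown for it and for the coding Magohb-201, with the bases after the junction in capitals (spanning chr6:131291926-131293086 and chr6:131289433-131293086, minus strand), followed by the end of its reading frame (chr6:131291888-131291914), whose stop is in capitals.
Magohb-201: agtttcggccggacgGGAAGCTTAGATATG
Magohb-203: agtttcggccggacgCTAGCAGAATCTTAA
Magohb-203 end of frame: aactctaaagaagacgatgtctgcTAA
The frame runs 50 bases into the extra exon before this stop, with 4 junctions downstream. Magohb-203 was at 5.47, 4.30 and 3.16 TPM in the libraries labelled Upf2 cKO and at 0.410, 0 and 0.481 in the controls. The groups did not overlap, with a fold change of 3.59 ± 0.81 and an adjusted p of 0.057 by edgeR, 0.000141 by DESeq2 and 0.00568 by limma on log2(TPM + 0.5), and without control replicate 2 edgeR gave 0.0465. Magohb-203 passed the filter on low counts in this comparison alone, where it was high. It therefore entered the test through the rise itself, and no conclusion is drawn from these p-values. The other mutants stayed near the controls, at 0.218, 0.662 and 0.459 TPM in Hbs1l cKO and 0.219 and 0.797 in Pelo cKO. The coding Magohb-201 was at 36.4, 30.5 and 22.1 TPM against 30.5, 36.4 and 43.7 (-0.36), with overlap.

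**Figure D5:**
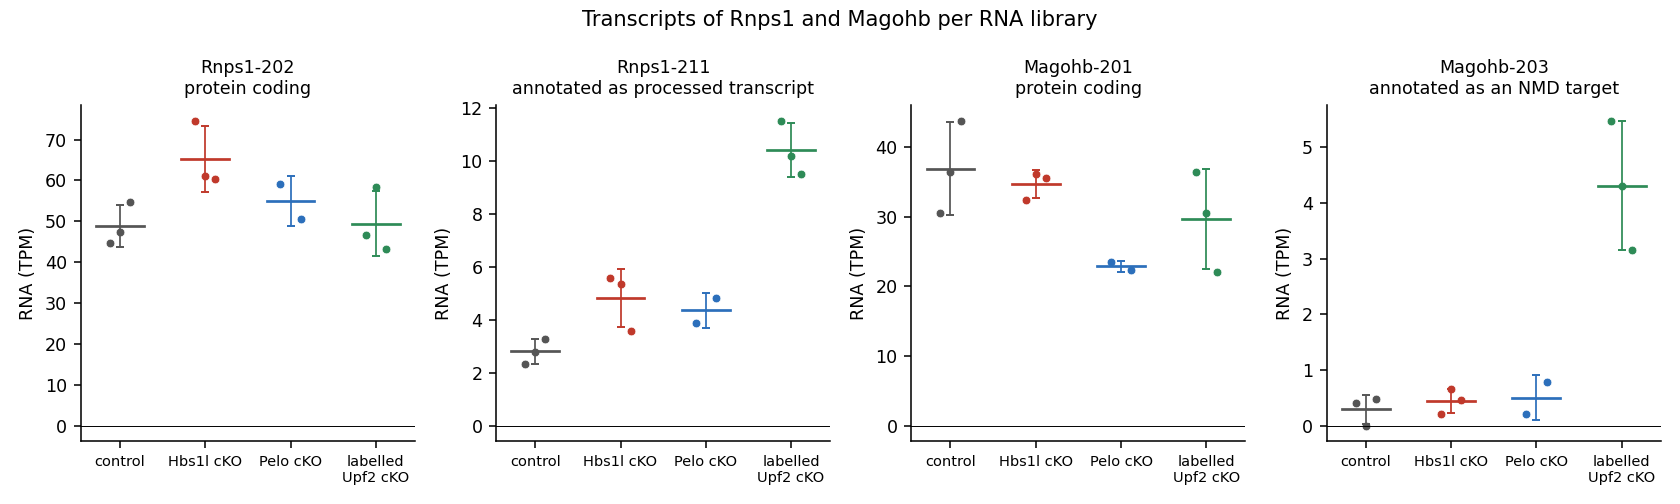
TPM of Rnps1-202, Rnps1-211, Magohb-201 and Magohb-203 in each RNA library, with 1 point a library and a line with SD bars at each group mean. Rnps1-211 and Magohb-203 are higher in the 3 libraries labelled Upf2 cKO, at 9.52 to 11.5 and 3.16 to 5.47 TPM, than in any other library, while the coding transcripts of both genes overlap with the controls in the libraries labelled Upf2 cKO.

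As a share of each gene's TPM, transcripts not annotated as protein coding made up 13.5 ± 1.71% (SD, n = 3) of Rnps1 in the libraries labelled Upf2 cKO, 4.80 ± 0.156% in controls, 5.97% in Hbs1l cKO and 6.65% in Pelo cKO. For Magohb the shares were 14.7 ± 3.28%, 2.02 ± 1.34% and 3.11 ± 1.64% in the libraries labelled Upf2 cKO, controls and Hbs1l cKO, and the 2 Pelo cKO libraries lay far apart at 0.926% and 11.99%. For Eif4a3 the libraries labelled Upf2 cKO ranged from 1.95% to 6.13%, the highest in replicate 1 with Eif4a3-203 at 6.18 TPM against 1.31 and 1.80 in the other two, and the controls from 0.171% to 1.14%. For Casc3 the ranges of 3.43% to 10.45% and 0% to 4.57% overlapped. Rbm8a kept means of 51.5% to 54.5% in all 4 groups, most of it in Rbm8a-204, a retained intron transcript at 18.1 to 33.9 TPM, and Magoh had means of 0% to 0.107%. TPM divide counts by transcript length, and as shares of estimated counts the values were lower. They were 13.2% against 4.52% in controls for Rnps1, 9.70% against 1.09% for Magohb, 0.706% against 0.140% for Eif4a3 and 0.782% against 0.251% for Casc3 in the libraries labelled Upf2 cKO, and 14.1% to 15.8% for Rbm8a over the 4 groups. These shares are a description and carry no test. The transcripts whose groups did not overlap numbered 6 of 16 higher in Hbs1l cKO (14.9% of all transcripts), 5 higher and 4 lower of 16 in Pelo cKO (27.1% and 14.8%) and 4 of 18 higher in the libraries labelled Upf2 cKO (19.5%). Among the last, Rbm8a-205 and Magohb-203 passed the filter on low counts only in that comparison, where they were high. Among the 5 higher in Pelo cKO, Rnps1-208 likewise passed the filter in that comparison alone. It was at 0.519 and 0.362 TPM there against 0 to 0.0904 in the controls. The counts of higher transcripts in Pelo cKO and in the libraries labelled Upf2 cKO thus depend on the rise itself.

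Genes that work with the complex were counted in the same way. Of 7 partners (Cwc22, which loads Eif4a3, Pym1 and Ipo13, which take the complex apart or recycle it, and Acin1, Pnn, Sap18 and Srrm1, which bind it in the nucleus), footprints of 4 rose and 1 fell in Hbs1l cKO, 3 rose and 1 fell in Pelo cKO, and 3 rose in the libraries labelled Upf2 cKO. These are 5, 4 and 3 of 7 called, beside 34.1%, 44.1% and 43.4% of all genes in either direction. Acin1, which joins Rnps1 and Sap18 in the ASAP complex, rose in all 3, by 0.41 ± 0.07, 0.46 ± 0.06 and 0.55 ± 0.07. Sap18 fell by 0.93 on the log2 scale in Hbs1l cKO (SE 0.28) and by 0.66 in Pelo cKO (SE 0.22). In Pelo cKO RNA 2 fell, Cwc22 (-1.17 ± 0.17) and Pnn (-0.96 ± 0.16), and the translational efficiency of both rose (1.46 ± 0.20 and 1.25 ± 0.17). In the other RNA comparisons 1 partner rose in each, Acin1 in Hbs1l cKO (0.51 ± 0.12) and Pym1 in the libraries labelled Upf2 cKO (0.61 ± 0.12). The background in RNA was 32.1% of all genes called in Pelo cKO, 23.1% in Hbs1l cKO and 20.0% in the libraries labelled Upf2 cKO.

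Of 10 nonsense-mediated decay factors, the footprints of 9 rose in the libraries labelled Upf2 cKO and the RNA of 7, with none lower, beside 22.3% and 13.2% of all genes called higher. The highest in RNA were Smg9 (1.86 ± 0.14) and Smg5 (1.47 ± 0.11), and the highest in footprints Smg9 (1.71 ± 0.08) and the kinase Smg1 (1.45 ± 0.06). Upf2 itself is 1 of the 10. In Hbs1l cKO footprints of 4 rose and in Pelo cKO of 4, with none lower, beside 17.4% and 22.9% of all genes called higher, among them Smg1 by 0.42 ± 0.07 and 0.34 ± 0.07. RNA of 2 rose and 2 fell in Pelo cKO (Upf1 0.57 ± 0.08, Upf3b -1.52 ± 0.15), and of 1 rose in Hbs1l cKO (Smg9, 0.40 ± 0.12), beside 32.1% and 23.1% of all genes called in either direction. Of 14 mRNA export genes, which act on the same spliced mRNAs, the footprints of 7 rose in Hbs1l cKO, of 6 rose and 2 fell in Pelo cKO, and of 6 rose in the libraries labelled Upf2 cKO, beside 34.1%, 44.1% and 43.4% of all genes called in either direction. The helicase gene Ddx39b rose in all 3, by 0.51 ± 0.07, 0.63 ± 0.08 and 0.69 ± 0.06. Export gene RNA rose for 6 of 14 in Hbs1l cKO, beside 12.7% of all genes called higher, among them Ddx39b (0.68 ± 0.10) and Alyref (0.58 ± 0.09), and in the libraries labelled Upf2 cKO 3 rose and 1 fell, beside 13.2% of all genes higher and 6.76% lower. It fell for 4 of 14 in Pelo cKO, with none higher, beside 16.6% of all genes called lower, with the translational efficiency of 8 higher, beside 24.3%, and the lowest RNA change was that of Sarnp (-2.02 ± 0.17). In embryos and in cerebella no gene of any of these lists passed.

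The initiation helicases Eif4a1 and Eif4a2, relatives of Eif4a3 that act in cap-dependent initiation, differed from it in part. Eif4a2 footprints fell in Hbs1l cKO (-0.27 ± 0.08) and Pelo cKO (-0.65 ± 0.08), where those of Eif4a3 rose, and rose in the libraries labelled Upf2 cKO (0.56 ± 0.08), where those of Eif4a3 did not pass. Its RNA fell in Hbs1l cKO (-0.72 ± 0.18) and Pelo cKO (-1.15 ± 0.09) and rose in the libraries labelled Upf2 cKO (0.68 ± 0.19). Eif4a1 footprints rose in Pelo cKO (0.66 ± 0.15), as did those of Eif4a3. The translational efficiency of both Eif4a1 and Eif4a2 also rose in Pelo cKO, as did that of Eif4a3, beside 24.3% of all genes called higher.

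Across the 11 RNA libraries, which share batch and controls, the log2 levels of the members were compared in pairs, as a description. Magoh and Rbm8a had a Pearson r of 0.904, Magohb and Rbm8a of 0.895, and Magoh and Magohb of 0.847, while Casc3 and Rnps1 had 0.688 and Casc3 ran against Magoh (-0.529) and Magohb (-0.558). Eif4a3 had 0.683 with Rbm8a, 0.677 with Rnps1, 0.522 with Magoh, 0.475 with Magohb and -0.0241 with Casc3. Among 9910 genes ranked in the same way, the genes most like Eif4a3 were Atp5a1 (0.994), Tuba1b (0.989) and Rpl3 (0.985). For Magohb they were Utp11 (0.988), Rpl21 (0.982) and Fkbp7 (0.97), and for Rbm8a Dnajc7 (0.984), Hnrnpa2b1 (0.977) and Anp32a (0.975). The nearest gene to Magoh was Rpf1 (0.966) and to Casc3 Evc2 (0.96). These values describe 11 libraries of 4 genotypes and carry no test.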

How the data were processed

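The deposited footprint tables hold whole-number counts per gene. Per the labels and the study's methods, the authors clipped adaptors, filtered structural RNAs out by Bowtie2 2.2.3, aligned what remained to mm10 using HISAT2 2.1.0, kept fragments of footprint length and counted genes with featureCounts. The RNA files, made by the authors with kallisto 0.42.4, give each transcript an estimated count and a TPM. The authors left out 1 further Pelo cKO RNA library as an outlier. Transcript models and coordinates here come from Gencode M21 on GRCm38, an earlier release than the authors used.

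Gene totals of the estimated counts were rounded to whole numbers. TPM values are the authors' own, summed per gene, while RNA fold changes come from the counts, so the TPM ratio and the fold change can differ. Footprint CPM use the trimmed-mean (TMM) factors of each comparison, and footprint levels across groups the factors of all libraries together. Each mutant was tested against the controls of its own batch with edgeR 4.0.16 (quasi-likelihood test, filterByExpr, R 4.3.3), with Benjamini-Hochberg adjustment over all genes or transcripts tested and a threshold of 0.05. Standard errors are the fold change over the root of F. Translational efficiency and differences between genotypes are contrasts in joint fits. The study's own tests for these needed inputs that were not used here. Histone genes were left out of the footprint tests, and 0 columns of sample values were left unused. Alternatives were DESeq2 1.42.0, its size factors, no filter on low counts, a replicate block, each library left out, for transcripts a mean of at least 1 TPM and limma 3.58.1 on log2(TPM + 0.5), and, chosen after seeing the data for footprints and efficiency, near copies summed (Rbm8a with Rbm8a2, Eif4a3 with Eif4a3l1 and Eif4a3l2, Magoh with Magohb). No such sum was made for Rnps1, whose copy Gm9825 has no row in the footprint tables used here. The fits were tested on simulated data. Control libraries were compared over genes with at least 30 summed counts, a minimum set after seeing the data. Tables and sequences were handled with Python 3.11.15, pandas 2.3.3 and Biopython 1.88.

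The members and the gene lists were chosen with earlier results of these data known. The genes named are the 6 members and all their transcripts that passed the filter, the targeted genes, near copies, and up to 3 called genes per list and comparison. Samples of equal number were not treated as pairs, since in no comparison did the deviations of every pair correlate over 0.1. Embryo replicates are pools and MEF replicates separate embryos, while p-values treat MEF control libraries resequenced in several batches as separate. Counts limit the precision of the low genes most, and embryo libraries were the shallowest, with 2634480 to 7298812 counts.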

Additional observations from a re-analysis of the deposited data

Results flagged for a closer look

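For 3 members the RNA effect differed between MEF genotypes by the test of the difference (edgeR's quasi-likelihood test, adjusted over all genes). Of all genes, 35.2% were called between Pelo and Hbs1l, 29.6% between Upf2 and Hbs1l and 32.0% between Upf2 and Pelo. Eif4a3 RNA was lower in Pelo cKO than in Hbs1l cKO relative to the shared controls, by -0.48 on the log2 scale, and lower in the libraries labelled Upf2 cKO than in Hbs1l cKO, by -0.49. Magohb RNA was lower in Pelo cKO than in Hbs1l cKO by -0.68, and higher in the libraries labelled Upf2 cKO than in Pelo cKO by 0.68. With a single Pelo library left, the latter was 0.54 without replicate 1 and 0.70 without replicate 2, and was not called. Rbm8a RNA was lower in Pelo cKO than in Hbs1l cKO by -0.53. In footprints, the Eif4a3 effect was lower in the libraries labelled Upf2 cKO than in Pelo cKO by -0.34. Of all genes 13.0% were called there. The Eif4a3 call was lost with the replicate block (adjusted p = 0.0516) and held in 5 of the 12 fits that left out 1 library. The control libraries of these batches hold the same material. Groups of 2 or 3 libraries are too small for a test of single outlying libraries.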

How the results depend on the processing

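Of 158 gene or transcript values tested for the members, 27 were called, 22 of these in every alternative run for them that kept all libraries and 13 in those that left out 1 library as well. None of the 27 changed sign. A further 21 were called in at least 1 alternative only, and 110 in none, of which 35 changed sign in some setting. With DESeq2 the number of members called became 1 in embryo footprints, 2 and 3 in footprints of Hbs1l cKO and Pelo cKO MEFs (Casc3 lost, adjusted p of 0.0833 and 0.101), 1 in RNA of the libraries labelled Upf2 cKO, 3, 5 and 2 transcripts in Hbs1l cKO, Pelo cKO and those labelled Upf2 cKO, 2 in the RNA difference between Upf2 and Hbs1l (Rnps1 gained), and 4 in that between Pelo and Hbs1l (Magoh gained, 0.0218). With no filter on low counts it became 1, 1 and 2 in embryo footprints, Upf2 RNA and the RNA difference between Upf2 and Hbs1l, again 2 and 3 in those MEF footprints (Casc3, 0.0512 and 0.0507) and 4 in the RNA difference between Pelo and Hbs1l (Magoh, 0.000236). With a mean of at least 1 TPM it became 1 transcript in Pelo cKO and 2 in Upf2, and with limma 2 in Upf2. The cause of these changes was not tested, and the shares of all genes and transcripts given above belong to the main fit.

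With the replicate block, 1 member (Rbm8a) was called in embryo footprints, and 0 in the Upf2 translational efficiency, the Upf2 transcripts and the footprint difference between Upf2 and Pelo (adjusted p of 0.0588 for Magoh, 0.0592 for Rnps1-211 and 0.0516 for Eif4a3). It called 3 in Pelo cKO footprints (Casc3 lost, 0.0571) and 4 in the RNA difference between Pelo and Hbs1l (Magoh gained, 0.0411). The correlation of equally numbered samples ranged from -0.237 to 0.219 over the comparisons, and in none did every sample correlate best with its own number.

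Leaving out 1 library gave 0 to 2 members called in embryo footprints and 0 to 0 in cerebellum. In MEF footprints it gave 1 to 3 for Hbs1l, 3 to 4 for Pelo and 1 to 3 for Upf2, in RNA 0 to 2, 0 to 4 and 0 to 1, and in efficiency 0 to 0, 4 to 4 and 0 to 1. Transcripts gave 0 to 0, 0 to 0 and 1 to 2. RNA differences gave 3 to 4 for Pelo minus Hbs1l, 1 to 2 for Upf2 minus Hbs1l and 0 to 2 for Upf2 minus Pelo, and footprint differences 0 to 0, 0 to 0 and 0 to 1. The difference between embryo and cerebellum gave 0 to 1. With a single Pelo RNA library left, its spread is assumed to be that of the other group. Rbm8a footprints in the libraries labelled Upf2 cKO ranged from -0.0431 without Upf2 replicate 2 to 0.15 without control replicate 1. The non-coding share of Rnps1 in the libraries labelled Upf2 cKO was 12.8% to 14.5%, or 13.2% from estimated counts.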
